A study of Danio rerio with 6 samples.

Results

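The genes described here are 10 genes of myelin and of the glia that make it, matched by zebrafish symbol to the Ensembl IDs of a table of 32520 genes from whole embryos at 72 hours post-fertilization (hpf). All 10 were found, 8 by symbol and 2, plp1a and egr2b, by a RefSeq synonym. Poly-A RNA was sequenced from 3 miR-34a-/- libraries and 3 wild-type libraries, each from a pool of 30 embryos by the study's methods (the labels give a wider range), to ask what loss of miR-34a changes in the transcriptome. Both genotypes carry the casper mutations, a background with little pigment, and no group was treated. The mutants, which lacked miR-34a from the egg onward, came from a homozygous line with 1 CRISPR/Cas9 deletion allele, and the wild-type embryos were from other parents than theirs. Whether the pools of a genotype came from separate crosses is not stated, and p-values then measure only the spread between these pools, which may be technical.

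Myelin is the membrane that glia wrap around axons so that impulses travel fast. Oligodendrocytes make it in the brain and spinal cord, and Schwann cells make it in the nerves of the body. Zebrafish begin to myelinate at about the stage sampled. Transcription factors set up the lineage: olig2, helped by its neighbor olig1, marks precursors in the ventral spinal cord, sox10 is needed in oligodendrocytes and Schwann cells alike, and egr2b (krox20) switches Schwann cells to myelination. The sheath proteins follow. Myelin basic proteins (mbpa, mbpb) hold the inner faces of the membrane together, proteolipid proteins (plp1a, plp1b) and myelin protein zero (mpz, in fish also a central myelin protein) hold the outer faces, and cldnk is a claudin of zebrafish myelinating glia. Several of these genes are used elsewhere too. sox10 also marks neural crest and the inner ear, olig2 motor neuron precursors, and egr2b hindbrain segments. In whole-embryo RNA, fewer cells of a type and less RNA per cell cannot be told apart.

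The libraries held between 10273343 and 16369150 counts, and 19240 genes were abundant enough to test, all 10 genes among them. Levels are in CPM, a gene's counts relative to the library total after TMM scaling, which corrects that total for differences in composition. Behind the levels of the 10 genes lay from 32 counts (egr2b in miR-34a-/- replicate 1) to 1682 counts (mbpb in miR-34a-/- replicate 3) per library. The levels of the 10 genes are not ranked against each other, since transcript lengths were not at hand. Where genes of another list are called the highest or the most abundant, this ranks their CPM only, uncorrected for transcript length. Markers of neurons, radial glia, inner ear, cartilage, neural crest and photoreceptors were all detected. One library stood apart and bears on most results below. In miR-34a-/- replicate 1 the sum of 5 photoreceptor genes was 155 CPM, against 800 and 845 CPM in miR-34a-/- replicates 2 and 3, and 858, 586 and 375 CPM in wild-type replicates 1, 2 and 3. The genotype difference of each of the 10 genes, and of their sums and shares, is therefore also given without that library.

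With all 6 libraries, none of the 10 genes passed the test for a genotype difference (edgeR quasi-likelihood test, adjusted p under 0.05), against 2.60% of all genes tested. With the added threshold of a 1.5-fold change the count was also 0, against 1.88% of all genes (0.925% higher and 0.956% lower), and both counts were 0 in the DESeq2 Wald test. At an unadjusted p under 0.05 there were 2 of 10, mpz and sox10, a share of 20% beside 15.3% over all genes, and in the DESeq2 Wald test there was 1. The same 2 genes were the only ones without overlap between the genotypes, beside 21.2% of all genes, 11.0% being higher in the mutants as these 2 were. Log2 fold changes were positive for 7 genes and negative for 3, with a median of 0.13, against -0.01 over all genes. For 5 of the 10 (mbpb, plp1a, plp1b, olig2 and sox10) the 95% interval of the fold change lay inside a 1.5-fold change either way, whereas for the other 5 the data did not limit it so far.

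**Figure D1:**
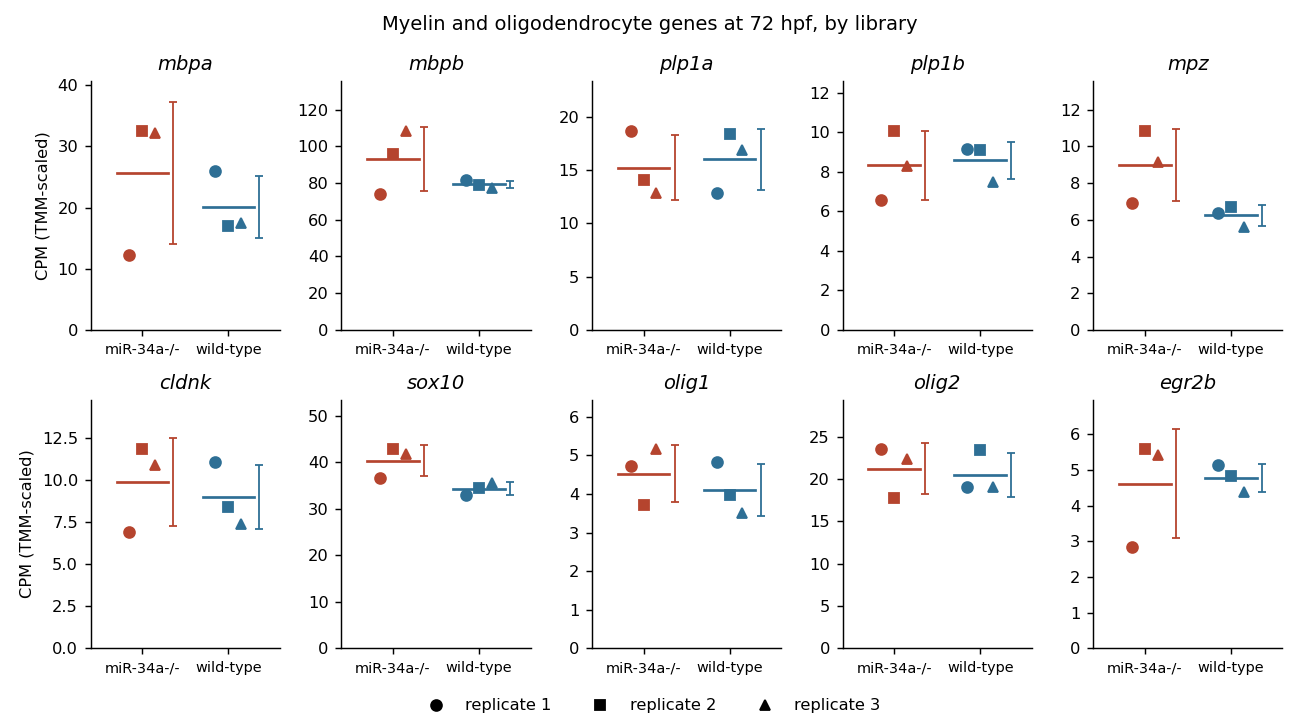
Levels of the 10 genes in CPM (vertical axes, each from 0) in the 3 miR-34a-/- and 3 wild-type libraries; symbols mark the replicate, lines the mean and bars the SD (n = 3). The genotypes overlap in 8 panels, and miR-34a-/- replicate 1 is the lowest of the 6 libraries for mbpa, mbpb, plp1b, cldnk and egr2b.

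Among the sheath genes, mbpa had the widest spread. It was at 12.3, 32.6 and 32.24 CPM in miR-34a-/- replicates 1, 2 and 3, against 26.0, 16.9 and 17.5 CPM in wild-type replicates 1, 2 and 3. The mutants thus held both the lowest library and the 2 highest, on either side of all wild-type libraries. The means were 25.7 ± 11.6 CPM in miR-34a-/- and 20.1 ± 5.1 CPM in wild-type libraries (SD, n = 3 each), and the log2 fold change was 0.34 ± 0.31 (SE, edgeR adjusted p = 0.642). Its 95% interval ran from a fold change of 0.782 to 2.05. Without miR-34a-/- replicate 1 the log2 fold change of mbpa was 0.66 ± 0.14 with an adjusted p of 0.00443.

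Its paralog mbpb was steadier. It was at 74.1, 96.0 and 108.4 CPM in miR-34a-/- libraries, against 81.5, 78.9 and 77.5 CPM in wild-type libraries. Here too miR-34a-/- replicate 1 lay below and the other mutant libraries above the whole wild-type range, which was narrow. The log2 fold change was 0.23 ± 0.12 with an adjusted p of 0.399, and 0.37 ± 0.08 with an adjusted p of 0.00333 without that library.

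Of the proteolipid genes, plp1a was at 18.7, 14.1 and 12.9 CPM in miR-34a-/- libraries, against 12.8, 18.4 and 16.9 CPM in wild-type libraries. The genotypes overlapped, and miR-34a-/- replicate 1 was the highest library, the reverse of its place for mbpa. The paralog plp1b was at 6.59, 10.1 and 8.32 CPM in miR-34a-/- libraries, against 9.17, 9.09 and 7.51 CPM in wild-type libraries, with miR-34a-/- replicate 1 lowest. Their log2 fold changes were -0.07 ± 0.18 (adjusted p = 0.886) and -0.05 ± 0.18 (adjusted p = 0.918). Without miR-34a-/- replicate 1, plp1a was at -0.24 and plp1b at 0.08, with adjusted p-values of 0.314 and 0.798, so neither passed the test.

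The adhesion protein gene mpz had the largest log2 fold change of the 10. It was at 6.94, 10.9 and 9.15 CPM in miR-34a-/- libraries, against 6.38, 6.72 and 5.61 CPM in wild-type libraries. Every mutant library was above every wild-type library, although miR-34a-/- replicate 1 cleared the highest of them by little. The log2 fold change was 0.52 ± 0.19, a fold change of 1.44 with a 95% interval from 1.08 to 1.91, but it did not hold after adjustment (unadjusted p = 0.0187, edgeR adjusted p = 0.212). Without miR-34a-/- replicate 1 it was 0.67 ± 0.17 with an adjusted p of 0.0121.

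The claudin gene cldnk was at 6.94, 11.8 and 10.9 CPM in miR-34a-/- libraries, against 11.1, 8.42 and 7.41 CPM in wild-type libraries. The libraries were interleaved, with miR-34a-/- replicate 2 highest and miR-34a-/- replicate 1 lowest. The log2 fold change of 0.13 ± 0.22 had an adjusted p of 0.828, and that of 0.31 without miR-34a-/- replicate 1 had an adjusted p of 0.229.

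Summed, the 6 sheath genes took 0.0128%, 0.0171% and 0.0172% of all counts in miR-34a-/- libraries, against 0.0149%, 0.0140% and 0.0136% in wild-type libraries. The means were 0.0157% ± 0.0025 and 0.0142% ± 0.0007 (SD, n = 3 each), a ratio of 1.11. The difference of 0.0015 percentage points was 0.0030 without miR-34a-/- replicate 1. In every library most of this sum was mbpb, with 832 of 1410 counts in miR-34a-/- replicate 1 and 1314 of 2370 in wild-type replicate 1. The sum thus mainly restates mbpb. The lowest library, miR-34a-/- replicate 1, had a 95% Wilson interval from 0.0121% to 0.0135%, which covers counting error only.

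Among the transcription factors, sox10 was at 36.6, 42.8 and 41.8 CPM in miR-34a-/- libraries, against 32.9, 34.5 and 35.6 CPM in wild-type libraries. The genotypes did not overlap, and the gap between them was small. Its fold change was 1.18 with a 95% interval from 1.03 to 1.35 (log2 fold change 0.24 ± 0.09, unadjusted p = 0.0206, edgeR adjusted p = 0.223). Without miR-34a-/- replicate 1 the log2 fold change was 0.30 ± 0.08 and the adjusted p 0.0218. Since sox10 is shared with other crest derivatives and the ear, their markers are given below.

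For olig2 the values were 23.5, 17.8 and 22.4 CPM in miR-34a-/- libraries, against 19.0, 23.5 and 19.0 CPM in wild-type libraries. The genotypes overlapped, and the log2 fold change was 0.06 ± 0.13 (adjusted p = 0.877). Its 95% interval, from a fold change of 0.846 to 1.28, left room for a small difference either way. olig1 was at 4.72, 3.72 and 5.16 CPM in miR-34a-/- libraries, against 4.84, 3.98 and 3.52 CPM in wild-type libraries, again with overlap (log2 fold change 0.14 ± 0.21, adjusted p = 0.797). Leaving out miR-34a-/- replicate 1 gave log2 fold changes of -0.01 for olig2 and 0.12 for olig1, with adjusted p-values of 0.977 and 0.781.

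egr2b was at 2.85, 5.57 and 5.42 CPM in miR-34a-/- libraries, against 5.15, 4.83 and 4.37 CPM in wild-type libraries. As with mbpa, miR-34a-/- replicate 1 was lowest and the other mutant libraries were highest. The log2 fold change was -0.05 ± 0.25 with an adjusted p of 0.945, and 0.19 without miR-34a-/- replicate 1 (adjusted p = 0.556). Together the 4 transcription factors took 0.00693% ± 0.00015 of all counts in miR-34a-/- and 0.00649% ± 0.00025 in wild-type libraries, a ratio of 1.07. The difference of 0.00043 percentage points was 0.00045 without miR-34a-/- replicate 1. In every library most of this sum was sox10, with 411 of 760 counts in miR-34a-/- replicate 1 and 531 of 999 in wild-type replicate 1.

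**Figure D2:**
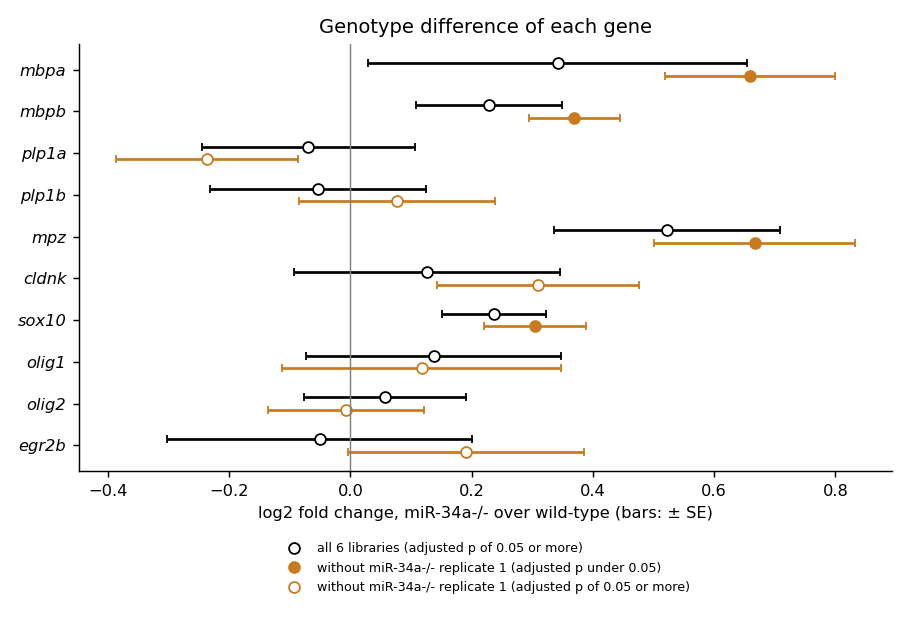
Log2 fold change of each gene, miR-34a-/- over wild-type (horizontal axis, bars ± SE), from all 6 libraries in black and without miR-34a-/- replicate 1 in orange; filled circles have an edgeR adjusted p under 0.05. No black circle is filled, and mbpa, mbpb, mpz and sox10 are filled in orange.

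Without miR-34a-/- replicate 1, 4 of the 10 genes thus had an adjusted p under 0.05, mbpa, mbpb, mpz and sox10, and all 4 were higher in the mutants. In that fit 15.6% of all genes passed, 7.09% being higher. With the 1.5-fold threshold 2 were called, mbpa and mpz, both higher, against 7.74% of all genes, 2.88% being higher. That fit holds only 2 mutant libraries. The library left out was singled out from these same data. It was the lowest of all 6 for mbpa and mbpb and the lowest mutant library for mpz and sox10. Leaving it out raised their mutant means, and the biological coefficient of variation, the spread between replicates, was 6.76% instead of 10.9%. The mutant libraries kept had photoreceptor sums of 800 and 845 CPM, against 858, 586 and 375 CPM in wild-type libraries. The other 5 fits that left out a library called none of the 10 and gave none an adjusted p under 0.05.

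The library that stood apart was then described gene by gene, as its log2 CPM minus the mean of the other replicates of its genotype. For miR-34a-/- replicate 1 this was -1.39 for mbpa, a 2.63-fold lower level, and 1.65% of all tested genes were at least that far from 0. It was -0.93 for egr2b, -0.70 for cldnk, -0.52 for mpz, -0.47 for plp1b, -0.46 for mbpb and -0.21 for sox10. Genes on the other side were plp1a at 0.47, olig2 at 0.24 and olig1 at 0.11. The median distance from 0 over all genes was 0.21, and sox10, olig1 and olig2 lay near it or closer to 0. Of all genes 5.74% were as far from 0 as egr2b and 10.8% as far as cldnk, whereas for mpz, plp1b, plp1a and mbpb the shares ran from 18.7% to 22.0%.

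In wild-type replicate 1, every gene but olig1 and sox10 lay on the other side of 0 than in miR-34a-/- replicate 1, though some only slightly. Of the 10 genes 3 were below 0 there, plp1a, olig2 and sox10. There mbpa was 0.59 and cldnk 0.49 above the mean of wild-type replicates 2 and 3, and olig1, on the same side in both libraries, was 0.36 above it. In the same library plp1a was at -0.46, while mbpb was at 0.058, mpz at 0.056 and sox10 at -0.092. Of all tested genes, 4.52% were as far from 0 as mbpa and 8.64% as far as plp1a.

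**Figure D3:**
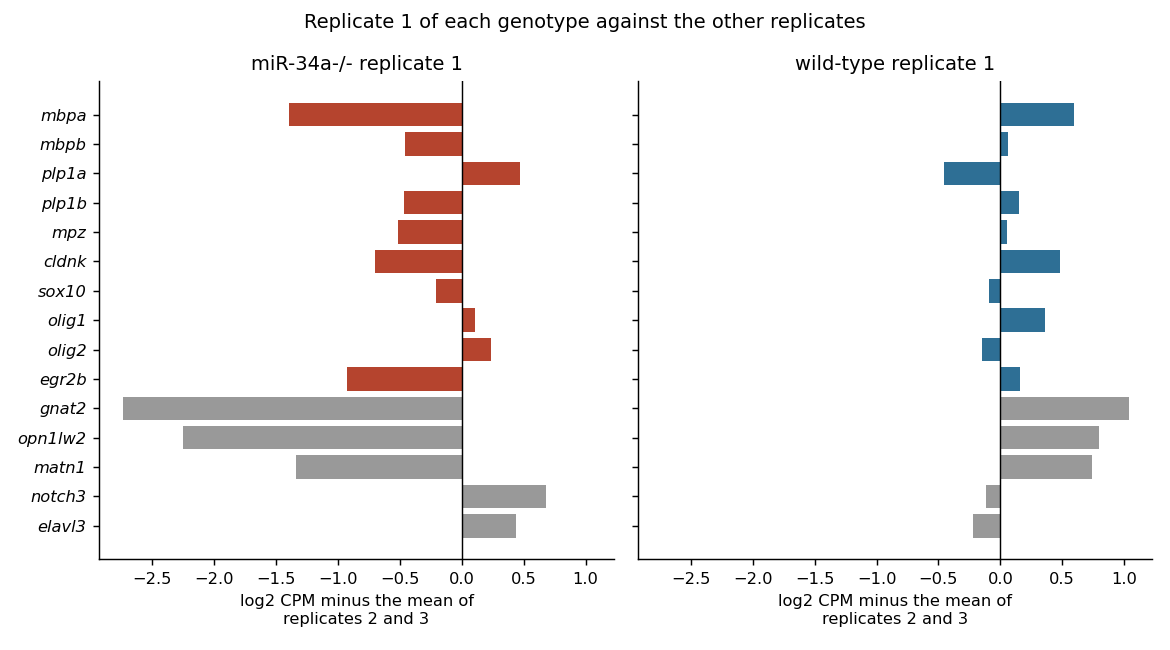
Log2 CPM of replicate 1 minus the mean of replicates 2 and 3 (horizontal axis) in miR-34a-/- (left) and wild-type (right) libraries, for the 10 genes in color and for the photoreceptor genes gnat2 and opn1lw2, the cartilage gene matn1, the progenitor receptor gene notch3 and the neuron gene elavl3 in grey. mbpa, mbpb, plp1b, mpz, cldnk, egr2b, gnat2, opn1lw2 and matn1 are lower in the mutant pool and higher in the wild-type pool, mbpb and mpz there only slightly. plp1a and olig2 are the reverse in both.

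Cartilage and photoreceptor genes moved with these libraries. The cartilage matrix gene matn1 was at 241.6, 616.9 and 609.4 CPM in miR-34a-/- libraries, against 532.3, 354.2 and 285.2 CPM in wild-type libraries. The cone transducin gene gnat2 was at 16.0, 110.1 and 104.9 CPM in miR-34a-/- libraries, against 119.6, 74.5 and 45.4 CPM in wild-type libraries. Both had miR-34a-/- replicate 1 lowest and the other mutant libraries with wild-type replicate 1 highest, as mbpa and cldnk did. The 3 libraries with the most photoreceptor RNA were also the 3 lowest in plp1a. The notch3 receptor gene went the other way, at 162.6 CPM in miR-34a-/- replicate 1 and 108.2 and 94.9 CPM in miR-34a-/- replicates 2 and 3, against 123.5, 128.0 and 140.5 CPM in wild-type libraries. All 6 libraries carry the same stage label. What part photoreceptor or cartilage RNA had in the values of the 10 genes was not tested, and no fit held a cartilage term. A fit that also held the mean log2 CPM of the 5 photoreceptor genes as a covariate was added once the data had been seen. The covariate was 4.47 in miR-34a-/- replicate 1 and ran from 5.67 to 6.91 in the other libraries. It thus sets apart the library singled out by the same genes, and this fit is not independent of leaving that library out. In it mbpa, mbpb and mpz had adjusted p-values of 0.0324, 0.0265 and 0.0325, all higher in the mutants. Of all genes 10.4% passed in this fit, 5.36% being higher. sox10 had an adjusted p of 0.0576, and none of the 10 was called at 1.5-fold, against 4.55% of all genes (2.02% higher).

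**Figure D4:**
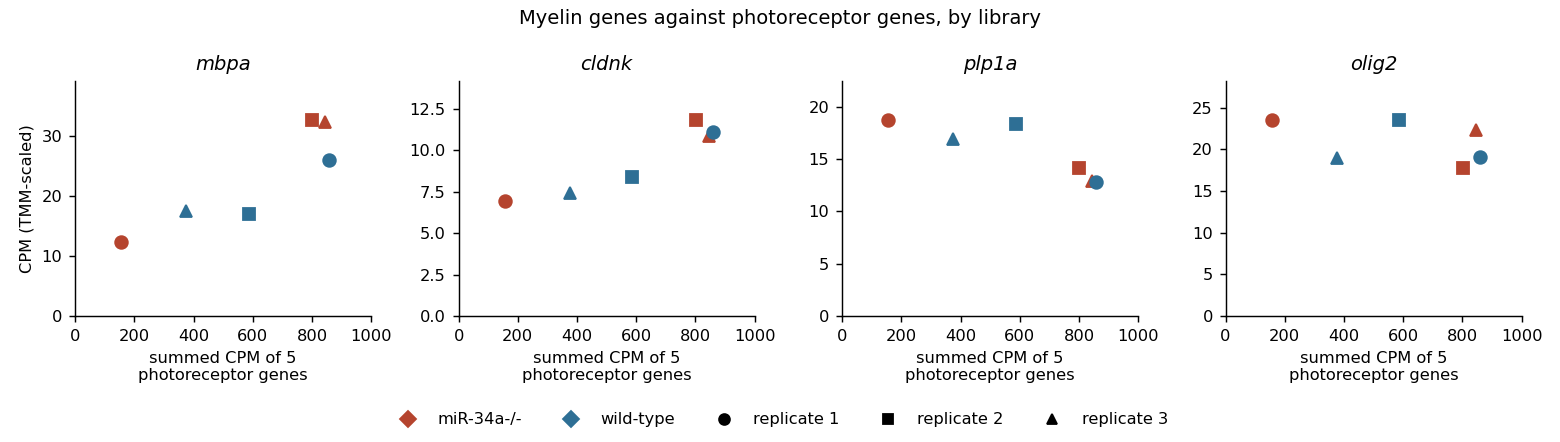
CPM of mbpa, cldnk, plp1a and olig2 (vertical axes) against the summed CPM of 5 photoreceptor genes (horizontal axes) in each of the 6 libraries, colored by genotype with symbols for the replicate. For mbpa and cldnk the 3 libraries above 800 CPM of photoreceptor RNA are the 3 highest, and for plp1a the 3 lowest.

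The balance of the paralogs was compared next, as a value that the scaling of libraries cannot alter. mbpa made up 14.2%, 25.3% and 22.9% of the counts of mbpa plus mbpb in miR-34a-/- libraries, against 24.2%, 17.7% and 18.4% in wild-type libraries. The 95% Wilson interval of miR-34a-/- replicate 1, from 12.2% to 16.6%, lay below those of the other mutant libraries. It overlapped those of wild-type replicates 2 (15.4% to 20.1%) and 3 (16.1% to 20.9%). These intervals cover counting error only. The means of 20.8% ± 5.8 and 20.1% ± 3.6 (SD, n = 3 each) differed by 0.74 percentage points, less than their spread (exact permutation test, two-sided p = 0.9, where 0.1 is the smallest possible, so that the test cannot reach 0.05). Without miR-34a-/- replicate 1 the difference was 4.04 percentage points. plp1a made up 73.9%, 58.3% and 60.8% of the counts of plp1a plus plp1b in miR-34a-/- libraries, against 58.3%, 66.9% and 69.3% in wild-type libraries. Again miR-34a-/- replicate 1 was outermost, and the means of 64.3% ± 8.4 and 64.8% ± 5.8 gave an exact permutation p of 0.9. Their difference of -0.48 percentage points was -5.28 without miR-34a-/- replicate 1. How reads shared by paralogs were counted is not stated.

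**Figure D5:**
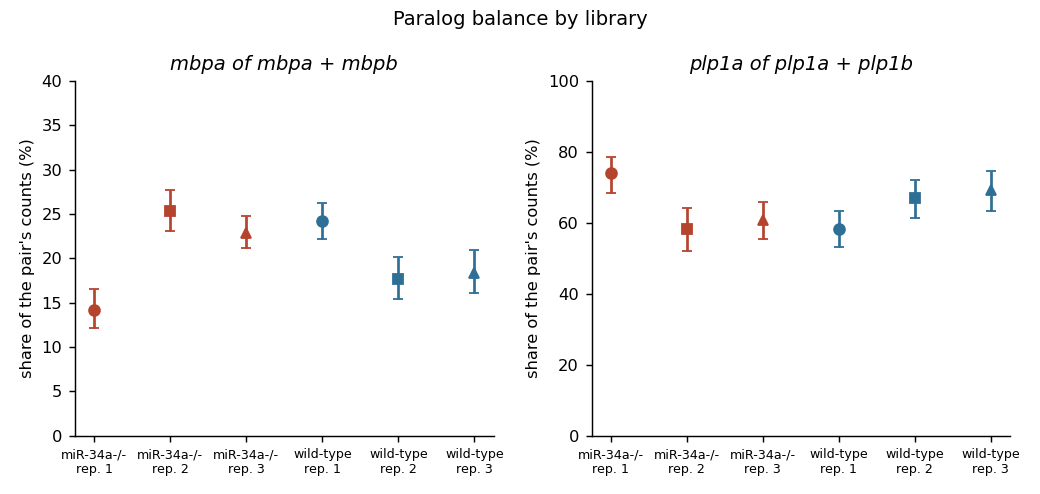
Share of the counts of each paralog pair taken by mbpa (left) and plp1a (right), in percent, by library with 95% Wilson intervals, which cover counting error only. miR-34a-/- replicate 1 has the lowest mbpa share and the highest plp1a share, and the genotypes overlap in both panels.

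Other genes of the sheath and its contact with the axon were examined from a wider list. Of 31 listed, 15 had an ID and were tested, and none had an adjusted p under 0.05 in edgeR or the DESeq2 Wald test. At an unadjusted p under 0.05 in edgeR there was 1 of the 15, beside 15.3% of all genes. This was tspan2b, named after its values were seen, with a log2 fold change of 0.36. It was also the only 1 of the 15 without overlap, beside 21.2% of all genes. Log2 fold changes were positive for 5 of the 15 and negative for 10. The median log2 fold change was -0.09. Those with the highest levels were pmp22a, a peripheral myelin protein, and cnp, an enzyme of oligodendrocyte cytoplasm in mammals. pmp22a was at 158.4 ± 10.9 CPM in miR-34a-/- and 154.7 ± 12.4 CPM in wild-type libraries (SD, n = 3 each). cnp was at 140.4 ± 6.5 CPM in miR-34a-/- and 132.8 ± 3.5 CPM in wild-type libraries (SD, n = 3 each). They were followed by prx (periaxin, of Schwann cells) with a log2 fold change of -0.22 ± 0.12 and the deacetylase gene sirt2 with -0.17 ± 0.10. Summed over the 15 genes, levels ran from 579 to 609 CPM in miR-34a-/- and from 585 to 617 CPM in wild-type libraries. Much of this sum was pmp22a and cnp. Which cells of the whole embryo their RNA came from was not tested, so the sum is no measure of the sheath alone.

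Of 28 other transcription factors of the lineage, 19 were tested. One, egr2a, the paralog of egr2b, had an adjusted p under 0.05, beside 2.60% of all genes. It was at 1.42, 1.76 and 2.97 CPM in miR-34a-/- libraries, against 0.68, 0.66 and 0.48 CPM in wild-type libraries, from 5 to 46 counts a library. All mutant libraries were above all wild-type libraries, as for 11.0% of all genes. The log2 fold change of egr2a was 1.76 ± 0.39 with an edgeR adjusted p of 0.0419. The adjusted p ran from 0.0019 to 0.195 over its alternatives: it was 0.0621 in the DESeq2 Wald test, 0.112 with the replicate number as a block, and from 0.107 to 0.195 when any library but miR-34a-/- replicate 1 was left out, and the filter on a mean count of 50 removed the gene. The factors with the highest levels, id2a, zeb2a, sox5 and tcf7l2, had log2 fold changes of 0.08, -0.03, -0.20 and 0.06 and did not pass. The median of the 19 was 0.02. At an unadjusted p under 0.05 in edgeR there were 3 of the 19, beside 15.3% of all genes, and 5 did not overlap, beside 21.2%. Besides egr2a the 3 held pou3f2a and sox6, named after their values were seen, which were lower (log2 fold changes of -0.31 and -0.19).

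Ligands and receptors of these glia were tested for 15 of 21 listed genes. None had an adjusted p under 0.05 in edgeR or the DESeq2 Wald test, and the median log2 fold change was -0.02. At an unadjusted p under 0.05 in edgeR there was 1 of the 15, beside 15.3% of all genes. This was lama2, named after its values were seen, with a log2 fold change of -0.70. fgfr2, dag1 (dystroglycan), notch3 and pdgfra, the receptor of oligodendrocyte precursors in mammals, had the highest levels, with log2 fold changes of -0.02, -0.01, -0.10 and -0.05. Sums ran from 713 to 937 CPM in miR-34a-/- and from 812 to 870 CPM in wild-type libraries, with miR-34a-/- replicate 1 the highest of all.

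Markers of the other cells that use these genes, or that myelin wraps, gave few differences. Of 13 neuron genes tested none had an adjusted p under 0.05 in edgeR or the DESeq2 Wald test and 3 an unadjusted p under 0.05, and their summed level ran from 2135 to 2171 CPM in miR-34a-/- and from 2160 to 2250 CPM in wild-type libraries. tubb5, elavl4, elavl3 and sv2a, the most abundant, had log2 fold changes of -0.03, -0.13, -0.24 and -0.15. Log2 fold changes were positive for 6 of the 13 and negative for 7. The 3 with an unadjusted p under 0.05 in edgeR, gap43, neflb and nefma, are named after their values were seen. All 3 were higher in the mutants without overlap, with log2 fold changes of 0.31, 0.22 and 0.20. Over all genes 15.3% had such a p, and 21.2% did not overlap. For radial glia 4 genes were tested, with log2 fold changes of -0.10 for gfap, 0.27 for her4.1, 0.27 for s100b and -0.43 for aqp4. None had an adjusted or an unadjusted p under 0.05 in edgeR, nor an adjusted p under 0.05 in the DESeq2 Wald test.

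Neural crest and pigment genes were examined because sox10 also marks neural crest. Of 10 tested, 1 was called, beside 1.88% of all genes (0.925% higher). This was gch2, an enzyme of yellow pigment synthesis, at 121.2, 117.4 and 121.9 CPM in miR-34a-/- libraries, against 75.2, 75.5 and 83.9 CPM in wild-type libraries. It rose by 0.62 ± 0.07 on the log2 scale (edgeR adjusted p = 0.00131). At an unadjusted p under 0.05 there were 5 of the 10, beside 15.3% of all genes, and the same 5 did not overlap, beside 21.2% of all genes. Their directions were mixed, crestin, foxd3 and gch2 being higher (1.05, 0.22 and 0.62) and tfap2e and dct lower (-0.24 and -0.31) on the log2 scale. crestin, foxd3 and tfap2e are named after their values were seen. crestin was at 1.34, 1.27 and 1.096 CPM in miR-34a-/- libraries, against 0.74, 0.38 and 0.57 CPM in wild-type libraries, from 4 to 17 counts a library. Its log2 fold change of 1.05 ± 0.36 did not hold after adjustment (edgeR adjusted p = 0.186). tfap2a and pmela had log2 fold changes of -0.08 and -0.07, and the sum of the 10 genes ran from 528 to 549 CPM in miR-34a-/- and from 501 to 552 CPM in wild-type libraries. Of this sum tfap2a alone averaged 192.3 CPM in miR-34a-/- and 203.8 CPM in wild-type libraries. Which cells of these casper embryos the RNA of the 10 genes came from was not tested. None of them, dct and pmela included, is therefore taken as a measure of neural crest. Of 7 inner ear genes none had an adjusted or an unadjusted p under 0.05 in edgeR, nor an adjusted p under 0.05 in the DESeq2 Wald test, stm being the most abundant at 0.12 ± 0.10. The share of these cells in the values of sox10 was not tested. For egr2b, the hindbrain genes hoxb2a and hoxa2b had log2 fold changes of 0.15 and 0.04 and did not pass either.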

How the data were processed

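RNA from pools of 30 whole embryos at 72 hpf was poly-A enriched. Per the study's methods and the submitters' processing notes, reads were trimmed with Trim Galore 0.4.4 at quality 20 and mapped with STAR 2.7.8 to danRer11. The authors deposited raw counts per Ensembl gene. Counting mode, strand, multiply mapped reads and annotation release are not given in the sources used here. Symbols came from a table of gene IDs and names and from RefSeq synonyms.

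Counts were filtered with filterByExpr, scaled by TMM and tested for genotype with edgeR 4.0.16 (R 4.3.3, limma 3.58.1), quasi-likelihood, with no covariate, and Benjamini-Hochberg adjustment over all 19240 genes. Thresholds were an adjusted p of 0.05 and a 1.5-fold change. Log2 CPM used a prior count of 1. Intervals are 95%, and 3 counts correspond to 0.183 to 0.292 CPM. DESeq2 1.42.0 was an alternative, as were other filters and scaling, a replicate block and leaving out each library. Replicates differed by more than sampling noise (chi-square divided by its degrees of freedom, 1.73 or more for each pair). The fit was also run on simulated counts, with no library set apart as miR-34a-/- replicate 1 was. The changes put in were larger than those of the 10 genes with all libraries. That run therefore does not show how the fit deals with such a library or with such small changes.

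The genes and lists were chosen with earlier results of these data known. Named were the 10 genes and, of each other list, genes with an adjusted p under 0.05 and the 4 most abundant. Cartilage (2 genes tested), microglia (3) and photoreceptor (5) lists gave no adjusted p under 0.05, and the hindbrain list (2) none. The microglial p2ry12 and c1qa and the photoreceptor gene pde6h were too low to test. Sequences are not printed here.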

Additional observations from a re-analysis of the deposited data

How the results depend on the processing

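None of the 10 genes was called in any alternative except without miR-34a-/- replicate 1, so that leaving out libraries gave from 0 to 2. Over all genes, 362 were called, against 217 with a mean count of at least 50, 216 with the replicate block, 875 with the photoreceptor term (added after seeing the data) and from 180 to 1504 when a library was left out. The high count came without miR-34a-/- replicate 1, where the biological coefficient of variation was 6.76% instead of 10.9%. DESeq2 size factors gave 363, no filter 523 and the DESeq2 Wald test 371.

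Log2 fold changes near 0 changed sign when libraries were left out: from -0.24 to 0.048 for plp1a, from -0.20 to 0.077 for plp1b, from -0.0076 to 0.32 for cldnk, from -0.0077 to 0.16 for olig2 and from -0.20 to 0.19 for egr2b. mbpa (0.13 to 0.66), mbpb (0.10 to 0.37), mpz (0.38 to 0.67), olig1 (0.02 to 0.28) and sox10 (0.20 to 0.30) stayed positive. The adjusted p over the 12 alternatives lay between 0.0044 and 0.93 for mbpa, 0.0033 and 0.79 for mbpb, 0.012 and 0.53 for mpz, and 0.022 and 0.50 for sox10.

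The genotype difference in the mbpa share ran from -1.51 to 4.04 percentage points and in the plp1a share from -5.28 to 2.54. In the summed share of the sheath genes it ran from 0.00074 to 0.0030 and of the transcription factors from 0.00034 to 0.00057 percentage points, and as TMM-scaled CPM the transcription factor difference was 0.00070 percentage points, beside 0.00043 from the counts. gch2 kept an adjusted p under 0.05 in all 12 alternatives.

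Libraries with the same replicate number were not treated as pairs, having correlations of deviations of -0.067, 0.0012 and -0.18. The replicate block called 216 genes but none of the 10, and gave log2 fold changes of 0.27 for mbpa (adjusted p = 0.789) and 0.50 for mpz (adjusted p = 0.315). With 3 libraries a genotype, the intervals of mbpa, mpz, cldnk, olig1 and egr2b reached past 1.5-fold.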

Other observations

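Other genes of myelinating glia passed the test in the fit without miR-34a-/- replicate 1, where 15.6% of all genes did (7.09% being higher), and not with all libraries. They were picked after their values were seen. In the signalling list 4 of 15 were lower and none higher, led by lama2, a laminin chain of the Schwann cell basal lamina. Which cells of the whole embryo lama2 RNA came from was not tested. lama2 was at 15.9, 9.58 and 6.83 CPM in miR-34a-/- replicates 1, 2 and 3, against 18.2, 13.7 and 20.1 CPM in wild-type libraries. The log2 fold change was -1.11 ± 0.18 in that fit (edgeR adjusted p = 0.000434) and -0.70 with all libraries (adjusted p = 0.245), and with the photoreceptor covariate it was -0.87 (adjusted p = 0.0041). Here and for gap43 below, the fit with the covariate is not independent of the one without miR-34a-/- replicate 1. erbb2, a co-receptor for neuregulin on Schwann cells, was at 10.6, 6.75 and 4.19 CPM in miR-34a-/- libraries, against 10.1, 7.95 and 9.31 CPM in wild-type libraries. Its log2 fold change was -0.79 ± 0.20 in that fit (edgeR adjusted p = 0.0144) and -0.37 with all libraries (adjusted p = 0.566).

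myrf, the transcription factor that oligodendrocytes need to express myelin genes, was at 13.8, 8.61 and 4.64 CPM in miR-34a-/- libraries, against 9.79, 10.3 and 11.0 CPM in wild-type libraries. The mutant libraries spanned more than the whole wild-type range, with miR-34a-/- replicate 1 highest and replicate 3 lowest. In the fit without replicate 1 it was lower, at -0.70 ± 0.21 on the log2 scale (edgeR adjusted p = 0.0303). With all libraries it was at -0.22 ± 0.31 (edgeR adjusted p = 0.775). Of the 19 other transcription factors of the lineage, 2 were lower and 1 higher in the fit without replicate 1, myrf among the lower. Which cells of the whole embryo myrf RNA came from was not tested. mbpa, mbpb and mpz were higher in the fit without replicate 1, the library highest of all 6 for myrf and lowest for mbpa and mbpb. Among the other sheath genes 3 of 15, prx, cntn2 and aspa, were also lower in that fit and none was higher. Of all genes 15.6% passed in it, 7.09% being higher. For aspa there were 6 and 11 counts in the 2 mutant libraries kept. mag, a sheath protein next to the axon, was at 12.7, 11.2 and 10.8 CPM in miR-34a-/- libraries, against 13.6, 10.7 and 11.1 CPM in wild-type libraries, a log2 fold change of -0.04 ± 0.14 (edgeR adjusted p = 0.926).

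In the same fit 15.6% of all genes passed, 7.09% being higher. Of 10 neural crest and pigment genes 2, dct and ltk, were lower beside the higher gch2. Of 2 cartilage genes 1, matn1, was higher. Of the 13 neuron genes tested 2 were higher in that fit and 1 was lower. gap43, a protein of growing axons, was at 175.2, 210.7 and 238.9 CPM in miR-34a-/- libraries, against 169.4, 171.5 and 164.6 CPM in wild-type libraries, where the genotypes did not overlap. The log2 fold change was 0.42 ± 0.07 (edgeR adjusted p = 0.00092) without replicate 1 and 0.31 with all libraries (adjusted p = 0.185), and 0.33 with the photoreceptor covariate (adjusted p = 0.0040).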
